A study of Mus musculus with 4 samples.

Results

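The genes described here make up the machinery of DNA replication and cell division, and they were read in single cells of mouse blood during acute pancreatitis (AP). They were chosen by name: 34 genes of mitosis and the late cell cycle, and 15 genes of DNA replication. The files list 48 of these 49 among 16152 gene names: 33 mitosis genes (Ccnb2 is not listed) and all 15 replication genes. The study followed blood mononuclear cells of wild-type C57BL/6J mice aged 6 to 8 weeks, taken over a Ficoll gradient and read by droplet sequencing of the 5′ ends of transcripts. AP was induced with 7 intraperitoneal injections of cerulein, a cholecystokinin analogue that overstimulates the exocrine pancreas. There are 4 libraries and 1 per group: control at 0 h, AP at 12 h and AP at 24 h, which the labels call the initial phase, and AP at 96 h, which they call recovery (the series' design text gives 168 h for the last sampling). The labels do not give the number of mice behind a library, nor any treatment of the controls.

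As background, replication begins when the minichromosome maintenance helicase (Mcm2 to Mcm7) is loaded on DNA and activated by Cdc45 and the GINS complex, of which Gins2 is a subunit. Primase (Prim1) starts the strands, Pcna clamps the polymerases to them, Uhrf1 carries DNA methylation through the fork, and Rrm2, Tyms, Tk1 and Dut serve the supply of nucleotides. Mitosis is then driven by Cdk1 with cyclins A2 and B1, by the Aurora and Plk1 kinases, by kinesins and kinetochore proteins that sort the chromosomes, and by Cdc20 and Ube2c, which mark mitotic regulators for destruction. Most circulating leukocytes are not in cycle, whereas monocyte precursors divide in the bone marrow and lymphocytes can re-enter the cycle when stimulated.

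The libraries held 11663 to 14569 cells with medians of 3571 to 4861.5 UMIs (unique molecular identifiers, 1 per captured transcript). Of these, 10222 to 12743 cells per library had at most 10% mitochondrial UMIs, were not called doublets and held at least 2000 UMIs. Each of these cells was reduced at random to exactly 2000 UMIs, so that levels could be set side by side at equal depth. Levels are given as CPM, UMIs of a gene per 1000000 UMIs of all genes. A cell was assigned to a lineage by a gate, a minimum number of distinct marker genes detected among all its UMIs. Where the largest or smallest ratio of a list is named, genes are ranked by the bound of the interval nearest to 1. A monocyte with at least 2 of Fn1, Vcan and F13a1 was called classical. The gates gave 391 to 1664 classical monocytes, 1346 to 3401 other monocytes, 2417 to 3718 B cells, 1690 to 4904 T cells, 163 to 544 T cells with NK (natural killer) markers and 398 to 787 NK cells per library. The T cells with NK markers passed both the T and the NK gate. Between 3.78% and 5.53% of cells passed for any other combination of lineages and were kept apart as mixed.

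Several facts about the files touch every comparison. Gene names carry rat forms: 28 start with RT1-, as rat histocompatibility genes do, none starts with the mouse prefix H2-, and 12518 of 16152 match mouse symbols. The barcode list of the control library holds 4340 entries for 14569 matrix columns, and the list of the 24 h library is identical to that of the 12 h library and holds 11663 entries for 12588 columns. The matrices themselves shared 0 equal cells between any pair of libraries. List sums and shares at 12 h and 24 h are therefore also given with the 96 h library in place of control. Of 107 values of single genes recomputed in this way, 92 moved by less than the counting interval, 14 moved by more and 1 turned. With 1 library per group there is no replicate and no test. Intervals are exact 95% intervals and cover counting error only. Those of levels and sums count each UMI as independent, although several UMIs can come from 1 cell, so they can be too narrow.

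Cells carrying several mitosis genes were most frequent 12 h into AP. At 2000 UMIs per cell, the share of cells with UMIs of at least 3 different mitosis genes was 0.784% (86 of 10970 cells) at 0 h, 1.79% (183 of 10222) at 12 h, 1.19% (125 of 10521) at 24 h and 0.785% (100 of 12743) at 96 h. The share at 12 h was 2.28 times that of control (interval 1.76 to 2.99), and that at 24 h was 1.52 times (1.14 to 2.02). At 96 h the ratio was 1.0 (0.743 to 1.35). With at most 5% mitochondrial UMIs, 1013 to 1663 cells were left in the AP libraries and 499 in control. The ratio at 12 h was then 5.10 (2.10 to 16.1), that at 24 h was 4.33 (1.72 to 14.0), and for 96 h it was 1.81 (0.690 to 6.0). Against the 96 h library in place of control, the ratios were 2.28 at 12 h and 1.51 at 24 h. Without thinning the shares were 1.78% at 0 h, 5.56% at 12 h, 4.02% at 24 h and 2.75% at 96 h, which shows how strongly the count of such cells depends on depth. The cut at 3 genes is a point on a continuous range: 198, 254, 210 and 250 cells at 0, 12, 24 and 96 h had exactly 2 mitosis genes, and 66, 123, 88 and 65 had 4 or more.

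The lineages that held these cells differed from library to library. At 12 h, 32.8% of them (60 of 183) were in a monocyte gate, whereas at 0, 24 and 96 h monocytes held 4.65%, 4.80% and 5.00%. At 24 h, 48.8% of them (61 of 125) were NK cells, whereas NK cells held 32.6%, 15.3% and 28.0% at 0, 12 and 96 h. T cells without NK markers held 31.4%, 15.8%, 9.60% and 27.0% at 0, 12, 24 and 96 h. Mixed cells held 12, 37, 20 and 7 of the cells at the same times, and 12 of the 37 at 12 h passed both the monocyte and the neutrophil gate.

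**Figure D1:**
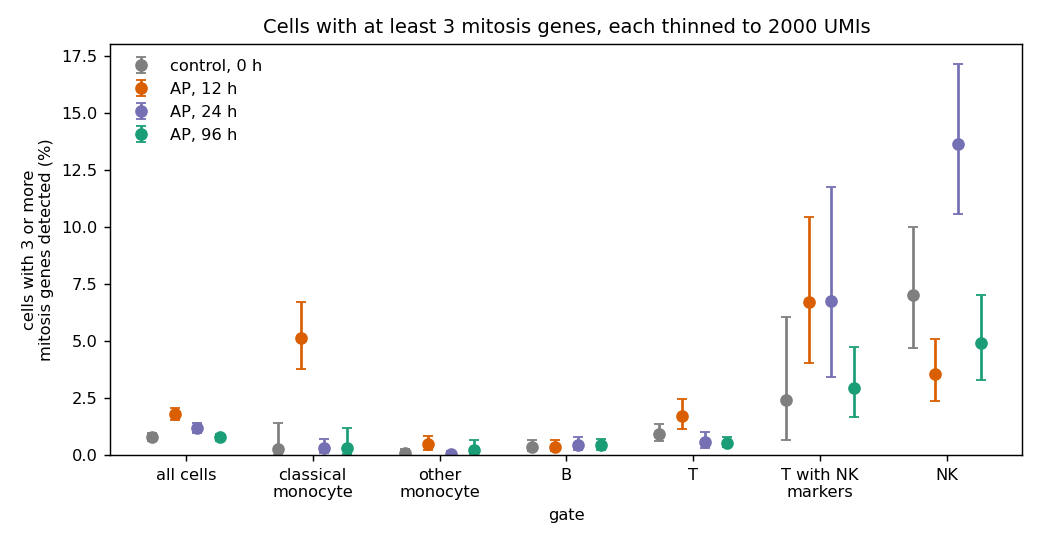
Share of cells with UMIs of at least 3 mitosis genes at 2000 UMIs per cell (y axis, percent) in each gate, for the 4 libraries at 0, 12, 24 and 96 h; bars are exact binomial 95% intervals. Classical monocytes reach 5.13% at 12 h and stay at or below 0.334% elsewhere, and NK cells reach 13.6% at 24 h.

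Within gates, the share among classical monocytes was 0.256% (1 of 391) at 0 h, 5.13% (48 of 936) at 12 h, 0.30% (5 of 1664) at 24 h and 0.334% (2 of 598) at 96 h. The interval at 12 h ran from 3.81% to 6.74%, above the upper bounds of all 3 other libraries (1.42%, 0.700% and 1.20%). NK cells stood at 7.04% (28 of 398), 3.56% (28 of 787), 13.6% (61 of 447) and 4.93% (28 of 568) at 0, 12, 24 and 96 h. B cells, which serve here as a gate with few such cells, stayed between 0.360% and 0.455% in all 4 libraries, at median depths of 2830 to 3332.5 UMIs before thinning against 7476 to 11078 in classical monocytes. Other monocytes had 0.476% (12 of 2520) at 12 h and 0.0364% to 0.223% at the other times. Without thinning, classical monocytes had 2.05%, 22.3%, 7.93% and 5.69% and NK cells 12.8%, 5.21%, 24.2% and 12.5% at 0, 12, 24 and 96 h. Among cells with at least 3 mitosis genes 1.61% to 4.76% were called doublets over the 4 libraries, and 4.09% to 5.73% of the rest.

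Summed over each list, mitosis genes varied more between libraries than replication genes. Over all cells the mitosis list summed to 165, 221, 199 and 185 CPM at 0, 12, 24 and 96 h, and the replication list to 283, 300, 277 and 294 CPM. The mitosis sum at 12 h was 1.34 times control (1.28 to 1.40), and the replication sum 1.06 times (1.02 to 1.10). The widest spread lay in classical monocytes, with mitosis sums of 79.3, 338, 121 and 124 CPM, and in NK cells, with 735, 467, 1302 and 599 CPM. Replication sums were 124, 196, 92.2 and 100 CPM in classical monocytes and 570, 349, 803 and 559 CPM in NK cells, so that NK cells had the highest sums of both lists in 3 of the 4 libraries and classical monocytes the lowest replication sums in every library. The exception is the 12 h library, where the T cells with NK markers had 536 CPM of mitosis genes and 412 CPM of replication genes.

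**Figure D2:**
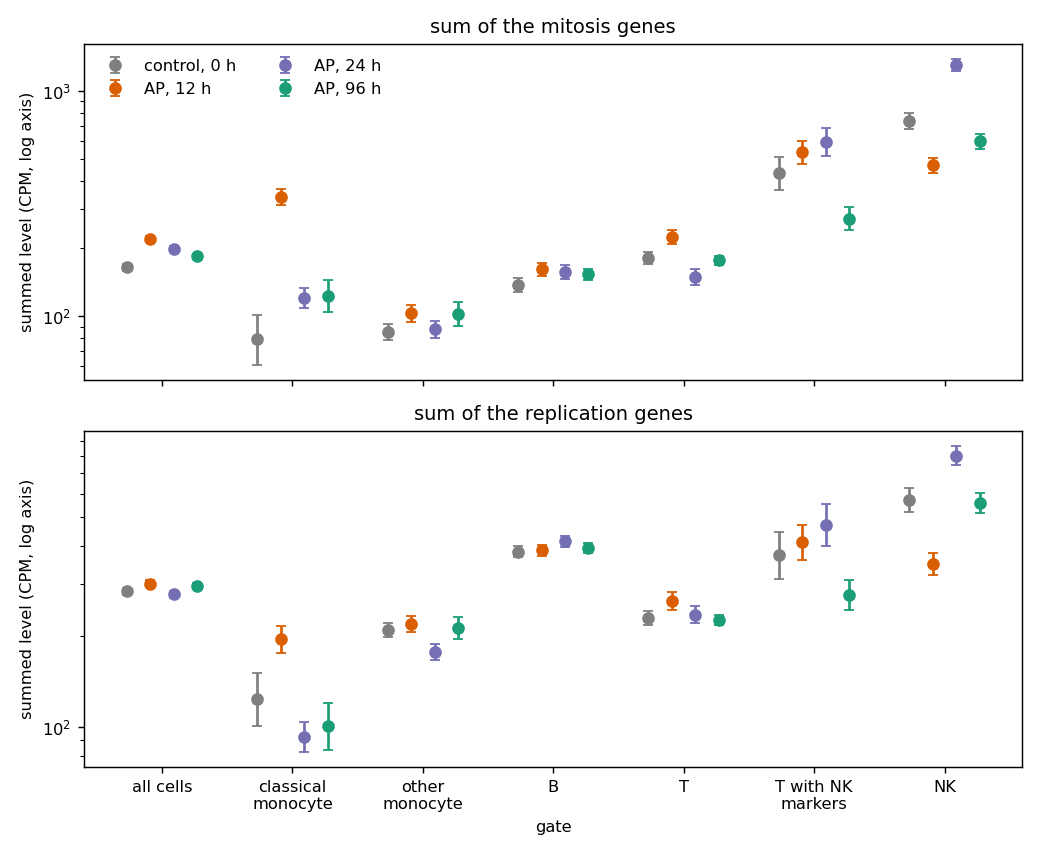
Summed level of the mitosis genes and of the replication genes (2 panels, y axis in CPM on a log scale) in each gate at 0, 12, 24 and 96 h, with exact Poisson 95% intervals. Mitosis sums in classical monocytes run from 79.3 to 338 CPM and those in B cells from 138 to 162 CPM.

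In classical monocytes, the blood monocytes that enter inflamed tissue, mitosis genes were 4.26 times as high in sum at 12 h of AP as in control (338 against 79.3 CPM, interval 3.28 to 5.63), and replication genes 1.58 times (196 against 124 CPM, 1.26 to 1.99). At 24 h the ratios were 1.52 for mitosis and 0.744 for replication genes, and at 96 h 1.56 and 0.809. Of the 33 mitosis genes, 11 had at least 20 UMIs over both libraries; 8 of them were 2-fold or more higher at 12 h and 1 2-fold or more lower, where 10.3% of all genes passed higher and 3.74% lower. Of the 15 replication genes, 7 were measured, 5 2-fold or more higher and 0 lower. Given the 2 libraries' sizes, a gene with at most 3 UMIs in control that reached 20 in sum had to pass the fold, which holds for 6 of the 8 mitosis genes and 2 of the 5 replication genes, so nothing is read from these counts against the shares of all genes. With the 96 h library in place of control, the mitosis ratio at 12 h was 2.73 (2.28 to 3.29). At 24 h it turned to 0.976 (0.807 to 1.19). The replication ratio was then 1.95 at 12 h and 0.919 at 24 h, and the ratio of the share with at least 3 mitosis genes at 12 h was 15.3 (4.02 to 130).

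Among mitotic regulators, Cdkn3, a phosphatase that acts on cyclin-dependent kinases, had 2 UMIs (2.56 CPM) at 0 h, 91 (48.6 CPM) at 12 h, 15 (4.51 CPM) at 24 h and 2 (1.67 CPM) at 96 h in classical monocytes. Its level at 12 h was 19.0 times control, with an interval of 5.11 to 159 that reflects the 2 control UMIs, and the 12 h value lay above all 3 other libraries. Ube2c, the ubiquitin-conjugating enzyme of the anaphase-promoting complex, had 0, 37, 7 and 4 UMIs at 0, 12, 24 and 96 h. Set against a floor of 3 UMIs in the control library, it was 5.15-fold higher at 12 h (lower bound 3.98). Here and below, the lower bound beside a ratio to the floor was computed from the 0 control UMIs. It is therefore not the bound of a ratio to 3 counted UMIs, which would be lower. Mki67, which coats chromosomes in mitosis and is the usual marker of proliferation, had 5.12, 25.6, 5.41 and 5.02 CPM, a ratio of 5.01 at 12 h (1.84 to 19.1).

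Among genes of the kinetochore, the chromosomal passenger complex and the cytoskeleton, some were higher at 12 h and others were not. Stmn1, which destabilises microtubules, had 6.39, 72.6, 10.5 and 14.2 CPM at 0, 12, 24 and 96 h, 11.4 times control at 12 h (4.75 to 35.6) and 5.11 times the 96 h library (3.08 to 9.03). Spc24 of the kinetochore had 0, 35, 9 and 2 UMIs, 4.87-fold higher than the floor at 12 h (lower bound 3.76). Birc5 and Cdca8, both of the chromosomal passenger complex, had 22 and 21 UMIs at 12 h against 0 each in control. Against the floor they were 3.06-fold and 2.92-fold higher (lower bounds 2.29 and 2.18). Cks2, a small subunit of cyclin-dependent kinases, had 0, 25, 58 and 5 UMIs (0, 13.4, 17.4 and 4.18 CPM), with its highest level at 24 h. No ratio of its 24 h to its 12 h level was computed, and Aurka, given below, was highest at 24 h as well. The Aurora kinases and Prc1 differed from these genes in their values. Aurka had 14.1, 21.9, 24.6 and 16.7 CPM, with a ratio at 12 h of 1.56 (0.786 to 3.36). Aurkb, the kinase of the passenger complex, had 8.95, 6.94, 7.51 and 11.7 CPM. Prc1, which bundles microtubules of the spindle midzone, had 34.5, 16.6, 34.9 and 50.2 CPM, lower at 12 h than in control (0.480, interval 0.277 to 0.835). The 22 mitosis genes with fewer UMIs were not compared one by one. Among them Top2a, which untangles sister chromosomes, had 0, 16, 0 and 1 UMIs, Ccnb1 had 0, 17, 5 and 0, Cenpf had 0, 18, 5 and 3, and Cdk1 had 0, 6, 1 and 0.

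**Figure D3:**
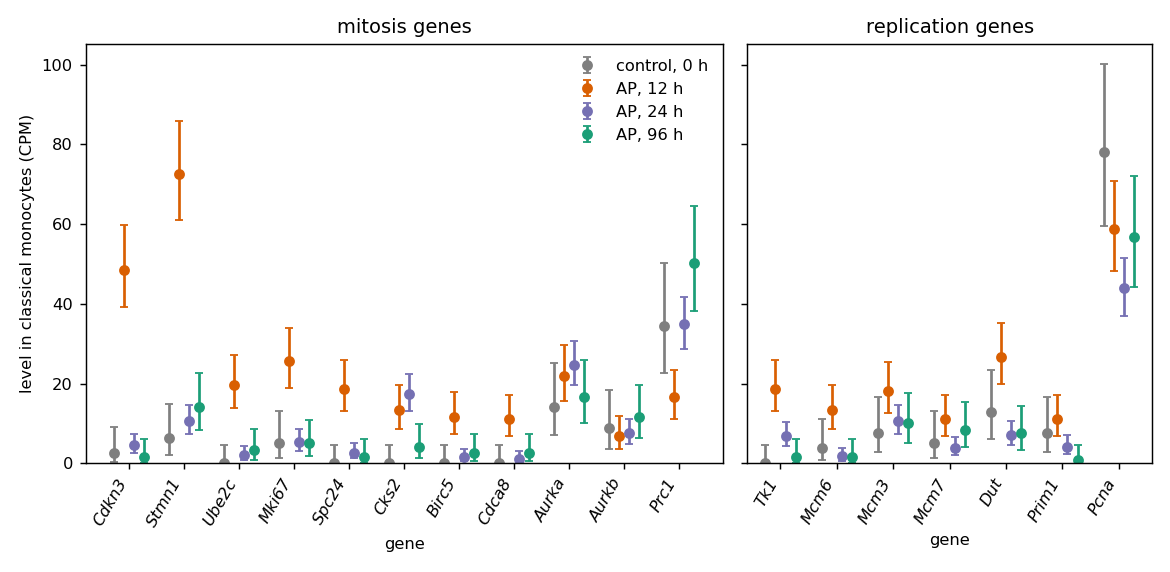
Level of each measured mitosis gene (11) and replication gene (7) in classical monocytes at 0, 12, 24 and 96 h (y axis, CPM), with exact Poisson 95% intervals. Cdkn3 and Stmn1 stand at 48.6 and 72.6 CPM at 12 h and at most 14.2 CPM elsewhere, while Pcna is highest in control at 78.0 CPM.

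Replication genes in classical monocytes split. Tk1, thymidine kinase, had 0, 35, 23 and 2 UMIs at 0, 12, 24 and 96 h. At 12 h it was 4.87-fold higher than the control floor of 3 UMIs (lower bound 3.76) and 11.2 times the 96 h library (lower bound 2.87). Among helicase subunits, Mcm6 had 3.84, 13.4, 1.80 and 1.67 CPM (3.48 times control at 12 h, 1.06 to 18.0). Mcm3 had 7.67, 18.2, 10.5 and 10.0 CPM and Mcm7 5.12, 11.2, 3.91 and 8.36 CPM, with ratios at 12 h of 2.37 (0.982 to 6.90) and 2.19 (0.740 to 8.79), intervals that include 1. Dut, which removes dUTP, had 12.8, 26.7, 7.21 and 7.53 CPM, 2.09 times control at 12 h (1.05 to 4.62). Pcna ran the other way, with 78.0, 58.8, 43.9 and 56.9 CPM; its ratios were 0.753 at 12 h (0.546 to 1.05) and 0.562 at 24 h (0.414 to 0.771), and against the 96 h library 1.03 (0.757 to 1.42) and 0.772 (0.575 to 1.04). Without Pcna, the replication ratio at 12 h was 2.97 in place of 1.58 and that at 24 h was 1.05 in place of 0.744, so the sum over this list rests in large part on 1 gene. Mcm2, Mcm4 and Mcm5 had 0 UMIs in control and 13, 11 and 17 at 12 h, and Cdc45 had 0 in all 4 libraries.

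Mouse promoters of 3 mitosis genes (Cdkn3, Cdk1 and Top2a) and 2 replication genes (Mcm3 and Pcna) are shown here, so that the letters before the starts of genes from both lists can be compared. They are the 150 bases before the annotated transcription start, 5′ to 3′ on the gene's strand, from RefSeq on build GRCm38.p6. Capitals mark 3 motifs searched on both strands: CCAAT (read as ATTGG on the other strand), TTTGAA (read as TTCAAA), the core of the cell cycle homology region, and TTTNNCGC, an E2F-type site.
Cdkn3, chr14:46760391-46760540, plus strand: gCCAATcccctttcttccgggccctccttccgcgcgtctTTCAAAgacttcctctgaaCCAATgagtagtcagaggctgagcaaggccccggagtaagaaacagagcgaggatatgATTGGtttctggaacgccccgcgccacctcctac
Cdk1, chr10:69352913-69353062, minus strand: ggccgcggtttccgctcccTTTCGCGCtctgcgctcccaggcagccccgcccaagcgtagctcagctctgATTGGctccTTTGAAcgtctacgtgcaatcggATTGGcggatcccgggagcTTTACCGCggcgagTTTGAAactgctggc
Top2a, chr11:99024190-99024339, minus strand: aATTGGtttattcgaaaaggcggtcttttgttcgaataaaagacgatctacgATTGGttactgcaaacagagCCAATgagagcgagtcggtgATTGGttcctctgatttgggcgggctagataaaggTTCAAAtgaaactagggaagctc
Mcm3, chr1:20820313-20820462, minus strand: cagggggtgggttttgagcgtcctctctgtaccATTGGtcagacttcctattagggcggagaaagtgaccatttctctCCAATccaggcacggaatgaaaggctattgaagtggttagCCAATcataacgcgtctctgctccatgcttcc
Pcna, chr2:132253181-132253330, minus strand: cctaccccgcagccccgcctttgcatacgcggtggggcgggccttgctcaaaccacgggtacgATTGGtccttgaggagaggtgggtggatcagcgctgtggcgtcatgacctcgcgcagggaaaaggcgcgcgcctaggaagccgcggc
Cdkn3 and Top2a hold several CCAAT boxes and 1 TTTGAA each, Cdk1 holds all 3 motifs, Mcm3 holds CCAAT only and Pcna a single CCAAT. Within 250 bases before the start, CCAAT occurred in 25 of 28 mitosis genes with a promoter entry (89.3%), in 10 of 13 replication genes (76.9%) and in 37.5% of all 27025 genes. TTTGAA occurred in 12 mitosis genes (42.9%), 2 replication genes (15.4%) and 18.3% of all genes. TTTNNCGC occurred in 2 mitosis genes (7.14%), 4 replication genes (30.8%) and 4.94% of all. The 28 mitosis genes include Ccnb2, which holds CCAAT and TTTGAA but is not among the gene names of these data. A match is a run of letters in the mouse reference and not evidence of binding in these cells.

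The 48 classical monocytes with at least 3 mitosis genes at 12 h were deep cells, with a median of 18111.5 UMIs before thinning against 7255 in the rest of the gate. By construction they carried mitosis genes, and 53.1% of the gate's mitosis UMIs lay in them. Of these cells, 34 had Cdkn3, 32 had Stmn1 and 19 had Mki67. Only 16.7% of the gate's replication UMIs lay in them, and 14 of the 936 cells had at least 3 replication genes (0 of 391 control cells), 6 of them among the 48. In the cells outside the 48, the mitosis sum at 12 h was 2.21 times that of control cells with fewer than 3 (1.67 to 2.98), a value shaped by the split itself, which reads the same genes. The replication sum was 1.38 times control in these cells (1.10 to 1.75) and 1.26 times in cells with no mitosis UMI, an interval that includes 1 (0.975 to 1.64).

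Markers of other cells were looked up in the same 48 cells. Monocyte markers summed to 49313 CPM with Adgre1 at 0, and classical markers to 2438 CPM. Nonclassical markers were at 72.9 CPM with Cx3cr1 at 0, against 587 CPM in the whole gate. Neutrophil markers summed to 177 CPM, with Mmp8, Retnlg and Ltf at 0, against gate sums of 104, 152, 155 and 116 CPM at 0, 12, 24 and 96 h. All listed markers of T cells, dendritic cells, plasma cells, platelets, blood progenitors and B precursors were at 0 in these 48 cells. B cell markers stood at 52.1 CPM (5 UMIs), against 29.4 in the whole gate, NK markers at 72.9 CPM (7 UMIs), against 47.5, and erythroid markers at 10.4 CPM (1 UMI), against 13.4, and their part in the levels was not tested. Platelet markers in the whole gate were higher at 12 h than at any other time (14.1, 68.4, 32.5 and 12.5 CPM), and their part in the levels was not tested.

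Other genes of the cycle in classical monocytes were set beside the same background of 10.3% of all genes higher and 3.74% lower. Of 14 listed genes of cell cycle entry, 3 were measured at 12 h and 0 passed 2-fold either way, with a sum of 443 against 274 CPM in control (1.62, interval 1.39 to 1.89). Ranked by interval, the cyclin Ccnd3 led (1.78) and its partner kinase Cdk4 was last (1.67), which need not be the order of the ratios themselves. The median log2 ratio of the 3 genes was 0.74. Of 10 listed brakes on the cycle, 8 were measured, 0 were 2-fold higher and 1 lower. That gene was Tob1, an antiproliferative protein, at 0.199 times control (0.147 to 0.266). Of 23 further replication genes, 11 were measured, and the list summed to 244 CPM at 12 h against 137 CPM in control (1.78, interval 1.44 to 2.22). Those past 2-fold included the clamp loader Rfc4 (3.68, interval 1.46 to 11.9), Rrm1 of ribonucleotide reductase (3.10) and Rpa2 (2.92), which with 3 control UMIs had to pass. Rfc4 led by its interval, but against the 96 h library its ratio was 1.17. Of 24 further mitosis genes, 8 were measured and 4 passed, 2 of which (Pttg1 and H2afz) had to pass, and the list summed to 1.40 times control (1.25 to 1.58). Pttg1, securin, had 60 UMIs at 12 h against 0 in control. It was 8.35-fold higher than the control floor of 3 UMIs (lower bound 6.59) and 5.48 times the 96 h library (2.50 to 14.2). The centromere histone Cenpa (3.93), the condensin subunit Smc2 (3.10) and the histone H2afz (19 against 1 UMIs) were the others, and Smc4, also of condensin, had the smallest ratio at 0.702.

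In the gate of classical monocytes at 24 h, 1 of 6 measured mitosis genes was 2-fold or more higher and 0 of 5 replication genes passed, where 5.95% of all genes passed higher and 4.99% lower. The mitosis gene was Cks2, 4.54-fold higher than the control floor of 3 UMIs (lower bound 3.58). At 96 h, 1 of 4 mitosis genes passed, Stmn1 at 2.22 (0.787 to 7.71), and the single replication gene measured, Pcna, stood at 0.729; 2.56% of all genes passed higher and 1.71% lower. The gate reads all UMIs of a cell, so deeper cells show more markers. With markers counted after thinning, the gate held 667 cells at 12 h and 238 in control. The mitosis ratio was then 4.33 (3.05 to 6.34), the ratio of the share with at least 3 mitosis genes 9.28 (1.52 to 380) in place of 20.1 (3.43 to 808), and the replication ratio 1.22 with an interval that included 1 (0.925 to 1.62).

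NK cells, the cytotoxic innate lymphocytes, had the reverse order in time. Both lists were lower at 12 h than in control and higher at 24 h. The mitosis sum of 735 CPM in control stood beside 467 CPM at 12 h (ratio 0.635, interval 0.569 to 0.709), 1302 CPM at 24 h (1.77, 1.60 to 1.96) and 599 CPM at 96 h (0.814, 0.728 to 0.911). Replication genes moved with them, at 0.612 (0.539 to 0.694), 1.41 (1.25 to 1.59) and 0.980 (0.867 to 1.11). These intervals count UMIs, of which 439 of the 585 control mitosis UMIs lay in 28 cells. Counted by cells with at least 3 mitosis genes, the ratios to control were 0.506 (0.289 to 0.886) at 12 h and 1.94 (1.22 to 3.15) at 24 h. At 96 h that ratio was 0.701, with an interval that includes 1 (0.400 to 1.23). Against the 96 h library, mitosis ratios were 0.780 at 12 h and 2.18 at 24 h, and replication ratios 0.624 and 1.44. The ratio of the share of NK cells with at least 3 mitosis genes at 12 h was then 0.722 (0.412 to 1.26), and 24 h gave 2.77 (1.74 to 4.50). The NK gate took 7.70% of cells at 12 h and between 3.63% and 4.46% in the other libraries.

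At 24 h, 11 of 21 measured mitosis genes and 3 of 12 replication genes were 2-fold or more higher in NK cells than in control and 0 lower, where 3.11% of all genes passed higher and 2.55% lower. Given the sizes of both libraries, 1 of the 11 (Cenpe) and 1 of the 3 (Gins2), each with 6 control UMIs, had to pass once they reached the minimum of UMIs. Nothing is therefore read from Cenpe and Gins2 against the shares of all genes. The median log2 ratio was 1.04 over the 21 mitosis genes, 0.60 over the 12 replication genes and -0.0070 over all measured genes. Top2a, already printed above with its promoter, led by its interval: it had 36.4, 23.5, 82.8 and 26.4 CPM at 0, 12, 24 and 96 h, 2.27 times control (1.46 to 3.62) and 3.13 times the 96 h library (2.03 to 4.96) at 24 h. Cdk1, the kinase that drives entry into mitosis, had 22.6, 12.1, 54.8 and 25.5 CPM, 2.42 times control at 24 h (1.39 to 4.42). Mki67 had 61.6, 49.6, 104 and 44.9 CPM (1.69, 1.18 to 2.44). In each of these 3 genes the 24 h library was the highest of the 4.

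The spindle factor Tpx2 had 10.1, 10.8, 28.0 and 5.28 CPM in NK cells (2.78 at 24 h, 1.22 to 7.14), Spc24 had 20.1, 19.1, 47.0 and 15.8 CPM (2.34, 1.29 to 4.45), and Ube2c had 17.6, 24.8, 42.5 and 10.6 CPM (2.42, 1.28 to 4.83). Cdkn3, which led in classical monocytes at 12 h, had 16.3, 14.6, 33.6 and 11.4 CPM, 2.05 times control at 24 h (1.04 to 4.29). Aurkb had the smallest ratio of the measured mitosis genes at 24 h, 1.22 (0.614 to 2.49). All 21 were thus at or above control, and none of the 14 measured at 96 h was 2-fold different, where 2.7% of all genes passed higher and 1.76% lower.

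Stmn1 had the most UMIs of any mitosis gene and the clearest drop at 12 h. It had 261, 110, 452 and 212 CPM in NK cells at 0, 12, 24 and 96 h, with ratios to control at 12, 24 and 96 h of 0.421 (0.342 to 0.517), 1.73 (1.46 to 2.05) and 0.812 (0.672 to 0.982). Stmn1 stood at 0.518 at 12 h and 2.13 at 24 h when set against the 96 h library. At 12 h, 0 of 20 measured mitosis genes were 2-fold or more higher and 3 2-fold or more lower (Stmn1, Cenpf at 0.393 and Cdca8 at 0.405), where 4.52% of all genes passed higher and 1.03% lower. Without Stmn1 the mitosis ratio at 12 h was 0.754. Ube2c had the largest ratio at 12 h, 1.41 (0.748 to 2.81).

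Among replication genes of NK cells, Mcm7 had 30.2, 32.4, 63.8 and 39.6 CPM at 0, 12, 24 and 96 h, 2.11 times control (1.29 to 3.56) and 1.61 times the 96 h library (1.07 to 2.43) at 24 h. Gins2 (2.52, 0.949 to 7.81) and Uhrf1 (2.05, 0.938 to 4.82) were the others past 2-fold, and Gins2, with 6 control UMIs, had to pass. Dut had 111, 55.9, 172 and 104 CPM, 0.506 times control at 12 h (0.372 to 0.687) and 1.56 at 24 h (1.19 to 2.05). Mcm6 had 70.4, 39.4, 105 and 73.9 CPM, and Prim1, the catalytic subunit of primase, had 67.8, 33.0, 86.1 and 56.3 CPM. These genes were lowest or near their lowest at 12 h and highest at 24 h. Prim1 was the single replication gene 2-fold or more lower at 12 h (0.487), of 11 measured. Pcna had 102, 57.2, 110 and 85.4 CPM, lower at 12 h (0.562, 0.412 to 0.768) and at 1.08 times control at 24 h. Mcm4 had 36.4, 22.9, 24.6 and 30.8 CPM, the smallest ratio at 24 h (0.675, 0.370 to 1.22). At 96 h, 0 of 12 passed 2-fold, between Mcm3 at 0.746 and Gins2 at 1.75 (0.642 to 5.51).

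**Figure D4:**
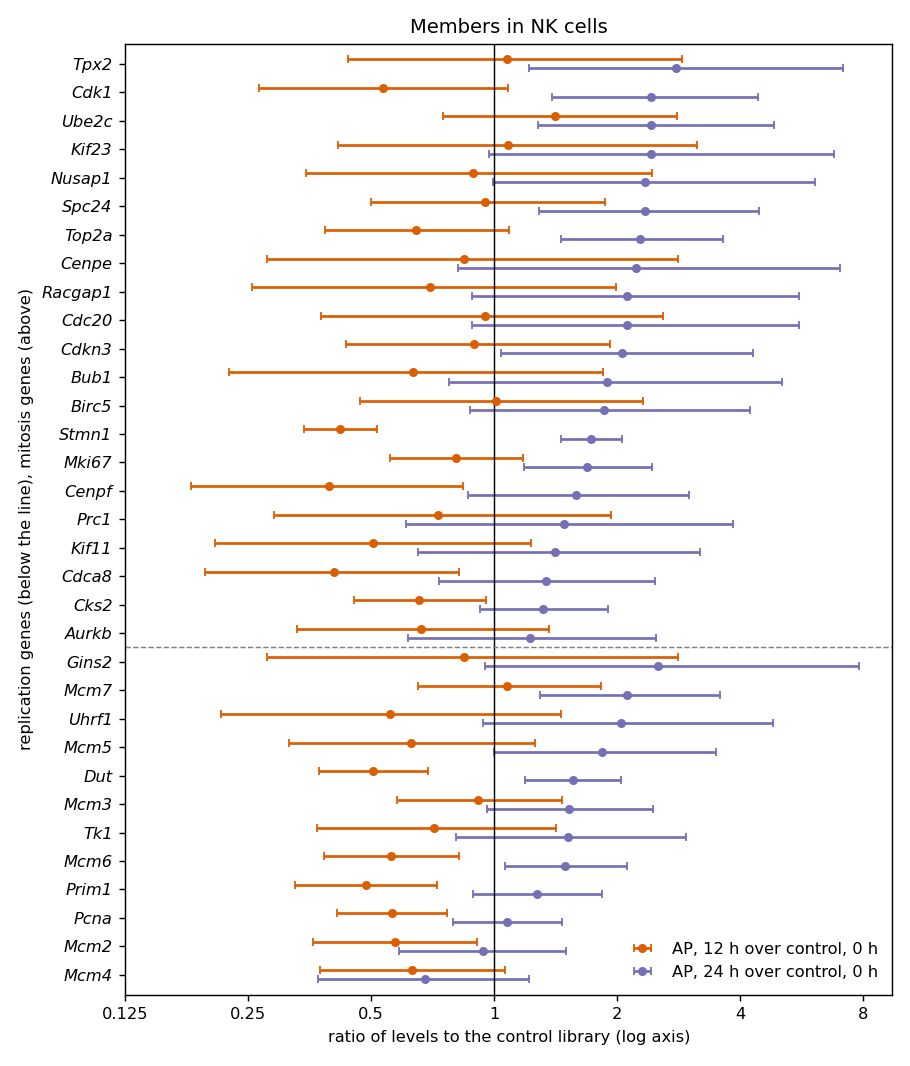
Ratio of each measured mitosis gene (above the dashed line) and replication gene (below it) in NK cells at 12 h and 24 h to control (x axis, log scale), with exact 95% intervals. At 24 h the mitosis genes run from 1.22 (Aurkb) upward, and at 12 h Stmn1 stands at 0.421.

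The 61 NK cells with at least 3 mitosis genes at 24 h held 83.7% of the gate's mitosis UMIs and 39.4% of its replication UMIs. In control the 28 such cells held 75.0% and 28.0%. Outside them, the ratios to control at 24 h were 1.25 for mitosis genes (1.0 to 1.56) and 1.28 for replication genes (1.10 to 1.48). The first is shaped by the split itself, which reads the same genes, and the size of that effect was not tested. In NK cells with no mitosis UMI, the replication ratio at 24 h was 1.01 (0.817 to 1.26). The share of NK cells with at least 3 replication genes, a measure that does not read the mitosis list, was 11.1% at 0 h, 4.07% at 12 h, 18.8% at 24 h and 11.1% at 96 h. NK markers summed to 8093, 8063, 8290 and 7971 CPM in the gate at these times. Monocyte markers summed to 431, 543, 753 and 302 CPM, highest at 24 h, and to 492 CPM in the 61 cells; T cell markers stood at 50.3 to 73.1 CPM. The part of monocyte RNA in the result was not tested.

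In NK cells at 24 h the further genes of the cycle differed by list, with median log2 ratios of -0.0065 over entry genes, 0.019 over brakes, 0.54 over further replication genes and 0.24 over further mitosis genes. Of 6 measured entry genes, 0 were 2-fold higher and 1 lower (Myc, 0.445), and Ccnd2 was highest at 1.31. Of 7 brakes, 0 passed, between Btg1 at 0.763 and Cdkn2c at 1.07. The 17 further replication genes summed to 1.44 times control (1.28 to 1.63). Ranked by interval, Rpa2 of the single-strand binding complex led at 1.78 and Rfc5 was last at 0.954. The 12 further mitosis genes summed to 1.13 times control (1.03 to 1.25), with 1 2-fold or more higher, the kinesin Kifc1 at 2.29, and the histone H2afz lowest at 0.703. At 12 h the sums were 0.951 for entry genes, 0.975 for brakes, 0.787 for replication and 0.788 for mitosis genes.

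In T cells without NK markers the list sums changed less than in classical monocytes or NK cells. The share with at least 3 mitosis genes was 0.955%, 1.72%, 0.598% and 0.551% at 0, 12, 24 and 96 h, and at 12 h it was 1.80 times control (1.03 to 3.15). Mitosis genes summed to 182, 225, 149 and 177 CPM at 0, 12, 24 and 96 h, with ratios to control of 1.24 (1.13 to 1.36), 0.819 (0.739 to 0.906) and 0.973 (0.901 to 1.05). Replication genes summed to 231, 263, 237 and 227 CPM, with ratios of 1.14 (1.04 to 1.24), 1.02 and 0.981. Set against 96 h in place of control, mitosis ratios were 1.27 at 12 h and 0.841 at 24 h, and replication ratios 1.16 and 1.04. At 12 h, 4 of 15 measured mitosis genes were 2-fold or more higher and 0 lower (2.85% and 1.5% of all genes). They were led by Tpx2 with 15 UMIs against 6 in control (4.18, 1.53 to 13.2). Given the sizes of both libraries, Tpx2 had to pass once it reached the minimum of UMIs, so nothing is read from its lead. The others were Ube2c (2.96), Birc5 (2.87) and Aurkb (2.39). Of 11 replication genes 0 passed, and Mcm6 was highest at 37.0 against 23.9 CPM (1.55, 1.20 to 1.99). With at most 5% mitochondrial UMIs, which left 61 control T cells, Mcm6 turned to 0.695 (0.258 to 2.17), and Tpx2 had 0 UMIs in control, so that its value of 0.608 against the floor of 3 UMIs is a lower bound with no direction. At 24 h, 0 of 12 mitosis genes were higher and 2 lower (1.09% and 4.17% of all genes), Mki67 at 3.49 against 8.14 CPM (0.428, 0.218 to 0.793) and Cdkn3 at 0.417. At 96 h, 1 of 19 mitosis genes was 2-fold or more higher (Tpx2, 2.02, 0.788 to 6.11) and 1 of 11 replication genes lower (Uhrf1, 0.425, 0.197 to 0.894), beside 1.09% and 1.83% of all genes. Outside the T cells with at least 3 mitosis genes, the mitosis ratio at 12 h was 0.929 (0.823 to 1.05). With markers counted after thinning, the mitosis ratios were 1.49 at 12 h and 1.04 at 24 h, so the lower sum at 24 h did not hold under that gate.

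T cells with NK markers are a small gate. The share with at least 3 mitosis genes was 2.41% (4 of 166), 6.74% (18 of 267), 6.75% (11 of 163) and 2.94% (16 of 544) at 0, 12, 24 and 96 h. Mitosis genes summed to 431, 536, 592 and 271 CPM, with ratios to control of 1.24 (1.01 to 1.53), 1.37 (1.10 to 1.72) and 0.629 (0.514 to 0.774). Against the 96 h library they were 1.98 at 12 h and 2.18 at 24 h. Few genes could be measured: 2 mitosis genes at 12 h, of which 0 passed (5.84% of all genes passed higher and 1.76% lower), 3 at 24 h and 3 at 96 h, of which 0 passed (5.51% higher). The 1 that passed at 24 h was Ube2c, with 49.1 CPM against 12.0 in control (4.07, 1.31 to 16.7). Of all genes, 2.98% passed higher and 4.14% lower at that time. Ube2c had 16 UMIs against 4 in control, so it had to pass once it reached the minimum of UMIs. Nothing is therefore read from it against these shares. Of 6 to 9 replication genes measured, 1 passed, Pcna at 96 h, with 33.1 CPM against 69.3 in control (0.478, 0.275 to 0.844), beside 2.91% of all genes lower.

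In B cells, replication genes summed to 384, 387, 415 and 394 CPM at 0, 12, 24 and 96 h and mitosis genes to 138, 162, 158 and 154 CPM. Mitosis ratios to the 96 h library were 1.05 at 12 h and 1.03 at 24 h, and replication ratios 0.983 and 1.05. Bub1b, a spindle checkpoint kinase, had the largest ratio at 12 h (4.44 against 1.26 CPM, 3.52, 1.49 to 9.61; 3.0 against the 96 h library), and Spc24 (2.49), Cdkn3 (2.17) and Tpx2 (2.13) passed 2-fold with it, 4 of 19 measured, where 3.4% of all genes passed higher and 1.17% lower. At 24 h, 3 of 15 were higher and 1 lower (1.93% and 2.13% of all genes), namely Cdc20 at 2.20, Spc24 and Tpx2 at 2.01 each, and Mki67 at 0.492. At 1000 UMIs per cell Mki67 turned, to 1.56 at 24 h (0.476 to 5.47). At 96 h 0 of 15 mitosis genes and 0 of 10 replication genes passed, beside 1.38% and 1.67%. Replication genes of B cells at 12 h parted: Mcm3 was higher (135 against 110 CPM, 1.22, 1.10 to 1.36) and Pcna lower (67.6 against 107 CPM, 0.631, 0.554 to 0.718), and 0 of 11 passed 2-fold.

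Other monocytes, which carry fewer classical markers, had mitosis sums of 85.3, 104, 87.6 and 103 CPM at 0, 12, 24 and 96 h. Cdkn3 again had the largest ratio at 12 h, with 4.76 CPM against 0.735 in control (24 against 5 UMIs, 6.48, interval 2.42 to 21.7), which against the 96 h library was 2.14 (0.851 to 6.39). Birc5 (2.87) and Mki67 (2.45) also passed 2-fold and Prc1 was lower (0.480). Thus 3 of 9 measured mitosis genes were higher and 1 lower, beside 2.84% and 1.99% of all genes. Given the sizes of both libraries, Cdkn3 and Birc5, with 5 and 8 control UMIs, had to pass once they reached the minimum of UMIs. Nothing is therefore read from this count against the shares of all genes. Cks2 was lower at 12 h, 10.9 against 17.6 CPM (0.619, 0.441 to 0.858). At 24 h, 1 of 8 mitosis genes passed (Birc5, 2.01, 0.772 to 5.59), beside 2.4% of all genes higher and 3.18% lower, and at 96 h 0 of 6, beside 1.48% and 1.74%. All 11 measured replication genes in these cells were within 2-fold of control at every time, with sums of 210, 220, 178 and 213 CPM and ratios of 1.05, 0.845 (0.778 to 0.917) and 1.01. Mitosis ratios to the 96 h library were 1.01 at 12 h and 0.855 at 24 h, and replication ratios 1.03 and 0.833.

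Pcna differed from the rest of its list in several lineages. It had the most UMIs of the replication genes (6226 over the 4 libraries, ahead of Mcm3 with 5006 and Dut with 3026), and over all cells it had the smallest ratio of the list at 12 h, 62.9 CPM against 80.2 in control (0.784, 0.729 to 0.843). It had the smallest ratio at 12 h in classical monocytes, other monocytes, B cells, T cells and T cells with NK markers as well, though the intervals included 1 in all of these but B cells. In NK cells Dut was smallest when ranked by its interval (0.506, 0.372 to 0.687), although the ratio of Prim1 was lower, at 0.487. Mcm3 over all cells was 64.0 CPM at 12 h against 49.9 in control (1.28, 1.18 to 1.39). Against the 96 h library, the ratio of Pcna at 12 h was 0.925 (0.860 to 0.995) and that of Mcm3 1.10 (1.02 to 1.18). Over all cells at 12 h, 8 of 31 measured mitosis genes and 0 of 14 replication genes were 2-fold or more higher and 0 lower, where 4.11% of all genes passed higher and 1.27% lower, and Cdkn3 led with 11.9 CPM against 3.10 (3.85, 2.93 to 5.12). At 24 h, 2 of 31 passed (3% of all genes passed higher), Tpx2 at 2.40 and Kif20a at 2.09, and at 96 h 0 passed either way, beside 1.94% of all genes higher and 4.22% lower. At 24 h 2.56% of all genes were lower.

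The 48 genes also differed in where their UMIs lay. Pooled over the 4 libraries, 85.7% of the UMIs of Ccna2, 85.0% of Top2a, 76.9% of Cenpf, 75.6% of Ube2c, 73.7% of Cdk1 and 66.5% of Mki67 were in the cells with at least 3 mitosis genes. These genes helped choose the cells, so the shares describe how closely each is tied to the others. Within the same list, 27.5% of Stmn1, 15.4% of Cks2, 15.4% of Aurkb, 15.3% of Prc1 and 3.0% of Aurka UMIs lay there, so that most UMIs of these genes lay in cells with fewer than 3 mitosis genes. The replication genes, which did not choose the cells, ran from 48.3% for Rrm2 (29 UMIs in all) and 47.4% for Uhrf1 to 13.9% for Dut, 4.19% for Pcna, 3.90% for Mcm7 and 1.38% for Mcm3. The order of the genes with few UMIs was not the same in each library: Rrm2 had 25% at 0 h and 61.5% at 12 h (4 and 13 UMIs), Uhrf1 48.9% and 53.1%, and both had 40% at 24 h. At 0, 12, 24 and 96 h Cdc45 had 19.0%, 9.09%, 41.2% and 8.33%.

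**Figure D5:**
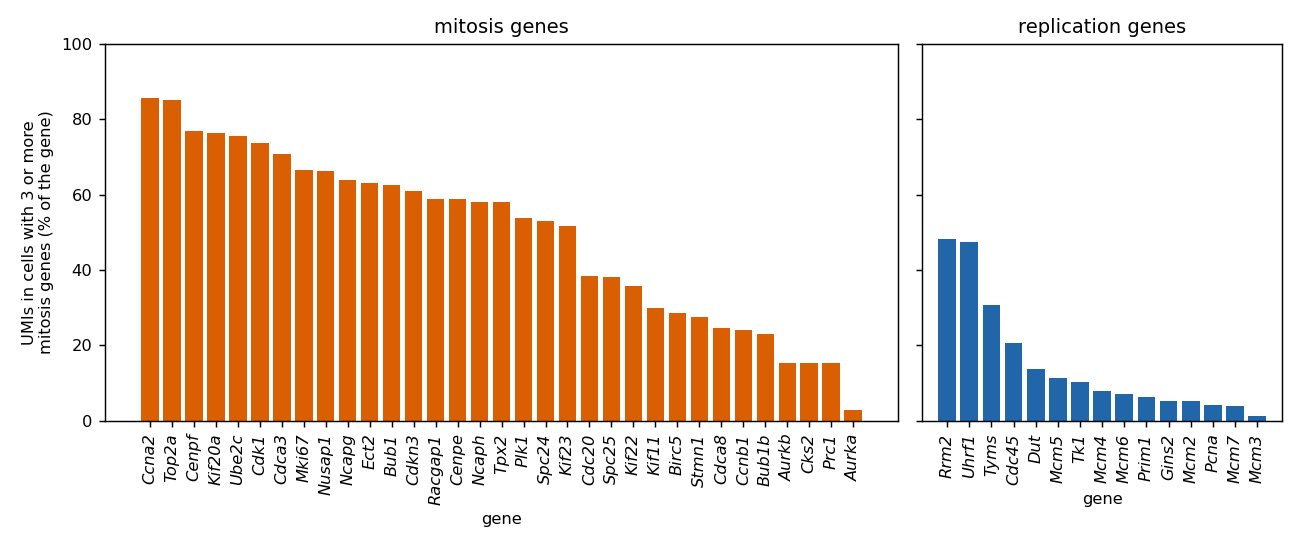
Percent of each gene's UMIs, pooled over 4 libraries, that lay in cells with UMIs of at least 3 mitosis genes (y axis, 1 bar per gene), in a panel each for the mitosis and the replication genes. Mitosis genes run from 85.7% (Ccna2) to 3.0% (Aurka) and replication genes from 48.3% (Rrm2) to 1.38% (Mcm3).

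Inside these cells, the balance of the lists differed between libraries as well as between lineages. Classical monocytes at 12 h had 0.182 replication UMIs per mitosis UMI (0.136 to 0.239). NK cells had 0.289, 0.176, 0.291 and 0.324 at 0, 12, 24 and 96 h, T cells 0.411, 0.265, 0.267 and 0.289, T cells with NK markers 0.271, 0.438, 0.331 and 0.377, and B cells 0.224, 0.169, 0.188 and 0.422. The value of classical monocytes at 12 h was close to that of NK cells at 12 h (0.140 to 0.220) and below the interval of NK cells at 24 h (0.254 to 0.332). These ratios compare lists within the same cells and were not scaled for gene length. The cells were chosen by their mitosis genes, so the mitosis UMIs in each ratio depend in part on the cut. Exactly 3 mitosis genes were held by 24 of the 48 classical monocytes at 12 h, 2 of the 28 NK cells at 12 h and 13 of the 61 at 24 h. The part of the cut in these ratios was not tested.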

How the data were processed

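The deposited counts are UMI counts per gene and cell in 4 matrices, made by the authors with Cell Ranger and Seurat on build mm10, per the submitters' processing notes, with no version stated. No cell in the matrices has under 301 genes or over 15.0% mitochondrial UMIs. Cells with over 10% mitochondrial UMIs, doublets called by Scrublet in scanpy 1.11.5 within each library, and cells under 2000 UMIs were left out, and the rest were thinned to 2000 UMIs with a fixed seed. Gates asked for distinct markers (2 for B or T, 3 for NK, monocyte or neutrophil); the cuts were set after the markers' distribution was seen. Levels have exact Poisson, shares Clopper-Pearson and ratios exact conditional binomial intervals, all 95% (scipy 1.17.1). Genes with under 20 UMIs over both libraries were not compared singly. A control sum of 0 was set to 3 UMIs in the ratio only, and the lower bound given with it was computed from the 0. The code was tested on simulated data. The members, pathway lists and markers were chosen with earlier results of these data known. The rule for named genes takes, per gate and comparison, the largest and smallest ratio of each list and the 3 genes with most UMIs; further genes were named after their values were seen. One gene of the further replication list is not reported here.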

Additional observations from a re-analysis of the deposited data

How the results depend on the processing

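Counting error is the only error measured, and depth limits single genes: 22 of 33 mitosis genes had under 20 UMIs in classical monocytes at 12 h. No paired analysis was possible because each group is 1 library. Values below are AP over control. Keeping doublets moved none of 51 list ratios and shares beyond the interval.
Using all UMIs in place of 2000, the share of all cells with at least 3 mitosis genes was 3.13, 2.26 and 1.55 times control at 12, 24 and 96 h, and replication over all cells at 96 h was 0.997. In classical monocytes at 12 h mitosis was 6.46 and replication 1.99, in other monocytes 1.80 and 1.16, in B cells 1.02 and 0.945, and in T cells mitosis was 1.47. B cell mitosis at 96 h was 1.0, T cell replication at 24 h 0.908, NK mitosis at 96 h 0.984, and Dut over all cells at 24 h 0.972.
At 1000 UMIs the classical monocyte share at 12 h was 2.51 against a floor of 3 cells (control 0), T cell mitosis at 12 h 1.37 and replication at 24 h 0.925. Cenpa in NK cells at 12 h was 1.34, Mki67 in B cells 2.12 at 12 h and 1.56 at 24 h, and Stmn1 in other monocytes at 24 h 1.14, each on the other side of 1 from its main value.
At most 5% mitochondrial UMIs left 499 control cells, too few in the classical monocyte, NK and B gates. The share over all cells was 5.10, 4.33 and 1.81 at 12, 24 and 96 h, and mitosis in other monocytes 1.42, 0.816 and 1.01. Other monocyte replication at 12 h was 0.952. T cell mitosis was 0.970 at 24 h and 0.556 at 96 h, and replication 0.858, 0.864 and 0.856 at 12, 24 and 96 h. Tpx2 (0.608, a lower bound, control 0) and Mcm6 (0.695) in T cells at 12 h, Mcm2 (0.966) at 12 h and Dut (0.912) at 24 h in other monocytes fell on the other side of 1.
Without Pcna, replication was 2.97 at 12 h and 1.05 at 24 h in classical monocytes, and 1.15 in other monocytes and 1.16 in B cells at 12 h. Without Stmn1, mitosis at 12 h was 1.55 in T cells and 0.754 in NK cells. With 1 more marker asked, NK mitosis at 24 h was 1.99.
The last 2 settings were chosen after seeing the data. Against the 96 h library, mitosis in classical monocytes was 2.73 at 12 h and 0.976 at 24 h, in other monocytes 1.01 and 0.855, in B cells 1.05 and 1.03, in NK cells 0.780 and 2.18, and in T cells with NK markers 1.98 and 2.18 (replication 1.49 and 1.71); Pcna over all cells at 24 h was 1.02. With markers counted after thinning, replication in classical monocytes at 12 h was 1.22, Tk1 there at 24 h 0.927 (control 0), and T cell mitosis 1.49 at 12 h and 1.04 at 24 h. The causes of these shifts were not tested.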
